A study of Mus musculus with 6 samples.

Results

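The genes described here encode secreted attractants and growth factors of immune and blood-forming cells. They are the protein-coding genes named as CC, CXC or CX3C chemokines, the colony-stimulating factors Csf1, Csf2 and Csf3, the interleukin-6 family cytokines Il6, Il11 and Lif, and the interleukin-1 family cytokine Il33. The names select 50 rows of the count table, out of 22046 protein-coding genes and 54532 genes in all. The 50 rows carry 44 different names, because 7 rows lie on unplaced or alternate sequences and repeat or extend the Ccl19, Ccl21 and Ccl27 families. The members were selected by name, and the list of names was set with earlier results of these data known.

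RNA was sequenced from cells labelled Glu-tag, a mouse line derived from an intestinal tumour and known for making proglucagon, which the study uses to model neuroendocrine tumours of the small intestine. Libraries labelled shIRS2 came from cells with a stably expressed hairpin directed at Irs2 and carry the genotype label IRS2 Knockdown. Irs2 is an adaptor that couples insulin and IGF receptors to phosphoinositide 3-kinase. Libraries labelled shControl came from the same line with a control hairpin and carry the genotype label WT. There were 3 libraries in each group, numbered 1 to 3 in the titles, and the labels name no further treatment, no hairpin sequence and no number of clones. Totals were 16985361, 16428788 and 15654814 counts in the libraries labelled shIRS2 and 14991019, 19790073 and 17711094 in the shControl libraries.

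The targeted transcript was checked first, and it was no lower under its own hairpin. Irs2 averaged 32.9 ± 5.22 CPM (counts per 1000000 counts of the library) in the libraries labelled shIRS2 and 29.5 ± 6.05 CPM in the shControl libraries (SD, n = 3 each). By edgeR it differed by 0.17 on the log2 scale (SE 0.16, 95% interval -0.20 to 0.54, adjusted p 1.00). Irs2 RNA thus goes against the label, so groups are named by their labels and directions refer to those labels. Markers of the labelled cell type were mostly absent, which also goes against the label. Apart from marker levels, the identity of the cells was not tested, and the cells are named by their label. Of 10 enteroendocrine markers, Gcg, Chga, Pcsk1 and Neurod1 were at 0 counts in all 6 libraries, and only Pax6, with 2397 counts, passed the filter on low counts.

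Chemokines are small proteins that bind to heparan sulphate on cell surfaces and matrix and guide leukocytes through G protein-coupled receptors. The cysteines near their start define the CC, CXC and CX3C classes, and many of their genes sit in clusters copied from a common ancestor. The colony-stimulating factors act on blood-forming and myeloid cells, with Csf1 as the main survival factor of macrophages. Leukaemia inhibitory factor, interleukin 6 and interleukin 11 act through receptors that share the gp130 chain, which is the product of Il6st. Many of these genes are induced through NF-kB and AP-1 transcription factors, in epithelial and mesenchymal cells as well as in leukocytes.

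Promoter sequences are shown for Csf1 and Ccl20, which were among the members that differed by replicate number, and for a chemokine cluster whose promoters share letters. The sequences are RefSeq's, on GRCm38.p6, whose chromosomes have the coordinates of mm10. For Csf1 and Ccl20 the 250 bases before the annotated start are printed 5′ to 3′ on the gene's strand. Capitals mark each stretch that holds GGG and CC with any 5 bases between them on either strand, the loosest form of an NF-kB-like match, and overlapping matches are merged. The Csf1 stretch is chr3:107760470-107760719 on the minus strand, and the Ccl20 stretch is chr1:83116516-83116765 on the plus strand.
Csf1: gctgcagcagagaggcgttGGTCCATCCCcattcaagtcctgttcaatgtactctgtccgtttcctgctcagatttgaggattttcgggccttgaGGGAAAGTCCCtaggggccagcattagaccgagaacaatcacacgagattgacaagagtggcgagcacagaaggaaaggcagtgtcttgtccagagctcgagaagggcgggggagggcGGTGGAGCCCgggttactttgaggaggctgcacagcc
Ccl20: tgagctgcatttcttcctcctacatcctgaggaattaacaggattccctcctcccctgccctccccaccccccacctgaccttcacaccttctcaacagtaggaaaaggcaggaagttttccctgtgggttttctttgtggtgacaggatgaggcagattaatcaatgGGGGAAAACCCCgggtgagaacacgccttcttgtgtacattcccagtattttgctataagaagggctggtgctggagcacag
The Csf1 promoter held 3 such stretches and the Ccl20 promoter 1. The Cx3cl1 promoter, of another member that differed by number, held 0. The match was present in 45.8% of the 32851 promoters of the table. Against this is to be read its presence in 7 of the 10 tested members with a promoter there (Csf1, Ccl20, Lif, Cxcl1, Cxcl2, Cxcl3 and Cxcl10). No promoter was found there for Ccl2, Ccl7 or Cxcl5, so these were not searched. The AP-1 letters TGANTCA, searched on both strands, were in 6.75% of the promoters and in those of Lif and Cxcl10. The STAT letters TTCNNNGAA were in 7.02% of the promoters and in none of the 11 promoters found for 10 of the 13 tested members.

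The promoters of 3 neighbouring CXC chemokine genes on chromosome 5 shared a longer run. The letters GGGAATTTCC, picked after the sequences were seen, are in capitals in the middle of 40 bases, again 5′ to 3′ on the plus strand, at chr5:90786013-90786052 for Cxcl3, chr5:90891159-90891198 for Cxcl1 and chr5:90903787-90903826 for Cxcl2.
Cxcl3: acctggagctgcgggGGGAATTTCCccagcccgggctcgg
Cxcl1: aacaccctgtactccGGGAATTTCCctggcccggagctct
Cxcl2: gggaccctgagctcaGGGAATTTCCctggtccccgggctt
The run begins 73 bases before the start of Cxcl3, 71 before that of Cxcl1 and 97 before that of Cxcl2. It was in 28 promoters of the table, or 0.0852%. The letters GGGAAATTCC, also picked after the sequences were seen, were in 32 promoters, or 0.0974%, among them those of the same 3 genes on the other strand, where they overlap the printed run, and that of Cxcl10. A match to letters is a description of the sequence and not a measured binding site.

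Csf1 and Ccl2 made up most of the RNA of the set, and secreted protein was not measured. Csf1 (ENSMUSG00000014599) spans 107741048 to 107760469 of chromosome 3 in mm10 (minus strand), Ccl2 (ENSMUSG00000035385) 82035571 to 82037453 of chromosome 11 (plus strand), and Cxcl1 (ENSMUSG00000029380) 90891241 to 90893115 of chromosome 5 (plus strand). Together the members made up 625, 1009 and 644 CPM in the libraries labelled shIRS2 and 566, 927 and 625 CPM in the shControl libraries. Csf1 alone held 56.9% to 68.6% of these counts in the libraries labelled shIRS2 and 58.5% to 72.3% in the shControl libraries. Per length the order changed, because the listed length is 5281 bases for Csf1 and 1138 for Ccl2. In FPKM, the authors' values scaled to gene length and library size, Ccl2 averaged 111 ± 30.7 and Csf1 89.7 ± 32.0 over all libraries (SD, n = 6). The Ccl2 and Csf1 means exceeded those of 98.4% and 98.0% of protein-coding genes, and the difference between them was smaller than their spread over libraries. Within libraries Ccl2 was the higher, except in the shControl library numbered 2, at 125.5 FPKM against 127.9 FPKM for Csf1.

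Cxcl1 came next at 32.5 ± 5.40 FPKM, above 92.6% of protein-coding genes (SD, n = 6). Ccl7 at 6.98 ± 2.56 FPKM and Cx3cl1 at 5.59 ± 0.958 FPKM followed and overlapped each other. Ccl25 at 2.67, Ccl20 at 2.49 and Lif at 2.15 FPKM formed the next step, and Ccl20 ranged too widely, from 1.17 to 3.66 FPKM, to be placed among them. Cxcl2 at 1.502, Csf2 at 1.44 and Cxcl5 at 1.28 FPKM did not differ beyond their spread. Cxcl10 at 0.567 and Cxcl3 at 0.232 FPKM were the lowest of the 13 members that passed the filter.

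**Figure D1:**
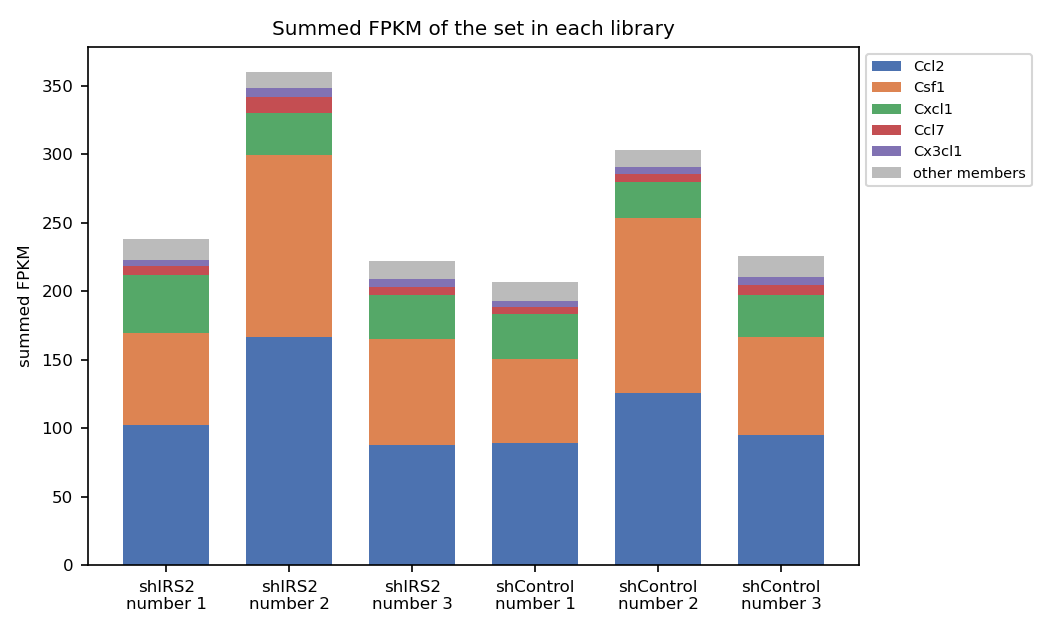
Summed FPKM of the set in each library, with the shIRS2 libraries left and the shControl libraries right, and colours for the 5 members with the highest mean FPKM. Ccl2 and Csf1 fill most of every bar, and the bars of the libraries numbered 2, at 360.4 FPKM for shIRS2 and 303 FPKM for shControl, are the tallest of their groups.

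The other 37 rows were scarce or at 0. Of these, 20 had 0 counts in all 6 libraries, which allows a level of up to 0.0295 CPM, and the limit covers counting error only. The Ccl19, Ccl21 and Ccl27 rows include several copies of a gene. How reads shared between copies were counted is not given in the sources used here, so the limit may not hold for these rows. Of the rows at 0, 13 were on chromosomes. They included Ccl19 and Ccl21a, the ligands that lead cells to lymph nodes, Cxcl12, the stromal ligand that retains blood-forming cells in marrow, and Cxcl14. They also included Cxcl9, which in mice is induced by interferon gamma, with Cxcl13, Ccl4, Ccl12, Ccl24, Ccl26, Ccl21b, Ccl27a and Ccl27b. The 10 rows named Ccl2 followed by a further digit and a letter were all among the rows at 0.

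The remaining 17 members had few counts. Cxcl16 had 39 counts over all 6 libraries, Il11 36, Ccl28 29, Ccl9 24, Ccl5 23, Il33 22 and Il6 18. Ccl17 and Ccl8 had 7 counts each, Cxcl17 5, Csf3 4, and Cxcl15 and Ccl6 3 each. Ccl22, Ccl11, Ccl1 and Ccl3 had 1 count each. Interleukin 6, the founding member of its family, was therefore close to the limit of detection, while Lif of the same family had 941 counts.

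Expression followed the gene clusters unevenly. On chromosome 11, from 82035571 to 82305690 in mm10, 6 members (Ccl2, Ccl7, Ccl11, Ccl12, Ccl8 and Ccl1) lie side by side and held 13497 counts, of which Ccl2 gave 12920 and Ccl7 568. A second CC cluster on the same chromosome, from 83525778 to 83664683, holds Ccl5, Ccl9, Ccl6, Ccl3 and Ccl4 and had 51 counts. On chromosome 5, from 90759360 to 90905938, Cxcl5, Cxcl3, Cxcl15, Cxcl1 and Cxcl2 held 6824 counts, of which Cxcl1 gave 6180. Cx3cl1 on chromosome 8 had 2235 counts, against 1 and 7 counts of its neighbours Ccl22 and Ccl17. Neighbours in the chromosome 5 cluster are close paralogs, and how reads shared between genes were counted is not given in the sources used here.

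Whether the hairpin group changed these genes was asked first. No member differed between the libraries labelled shIRS2 and the shControl libraries at an adjusted p of 0.05 by edgeR's quasi-likelihood test, and neither did any other gene: 0% of 13472 tested genes were called. At an unadjusted p under 0.05 there were 2 of 13 members, against 1.94% of all genes. The median log2 fold change of the 13 members was 0.04, against -0.00 over all tested genes, with 7 members positive and 6 negative. A fit with the group alone counts differences between the replicate numbers as spread within each group. For Csf1 its SE was 0.33, against 0.06 with the replicate number as a block. With that block, edgeR called 0 members and 0.00742% of genes, which is 1 gene. In that blocked fit 3 members, Cxcl1, Cxcl5 and Cxcl10, had an unadjusted p under 0.05, against 9.16% of all genes. DESeq2 without the block called 2 genes and limma-voom 0, and no member was among them.

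Csf1 had 356, 692 and 411 CPM in the libraries labelled shIRS2 and 331, 670.4 and 381 CPM in the shControl libraries, in the order of the numbers 1, 2 and 3. The groups overlapped almost completely, and the library numbered 2 was the highest of each. Csf1 averaged 486 ± 180.2 CPM in the libraries labelled shIRS2 and 461 ± 183 CPM in the shControl libraries (SD, n = 3 each). The edgeR estimate was 0.09 on the log2 scale (SE 0.33, 95% interval -0.69 to 0.86, adjusted p 1.00), so changes up to 1.82-fold lay inside the interval. With the block the interval narrowed to -0.02 to 0.22 (edgeR adjusted p 0.636).

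Ccl2, the main attractant of monocytes, had 117, 187 and 100.03 CPM in the libraries labelled shIRS2 and 104, 142 and 109 CPM in the shControl libraries. These overlapped, with a log2 fold change of 0.21 (SE 0.23, edgeR adjusted p 1.00). Ccl7, a second monocyte attractant encoded next to Ccl2, had 5.06, 9.43 and 4.34 CPM in the libraries labelled shIRS2 and 4.203, 4.60 and 5.93 CPM in the shControl libraries. Only the shIRS2 library numbered 2 stood above the others, and the log2 fold change was 0.37 (SE 0.30, edgeR adjusted p 1.00). Ccl20, the ligand of Ccr6 that draws dendritic cells and lymphocytes to gut epithelium, had 5.00, 1.64 and 2.94 CPM in the libraries labelled shIRS2 and 3.87, 2.63 and 5.25 CPM in the shControl libraries. The groups overlapped, with a log2 fold change of -0.27 (SE 0.38, edgeR adjusted p 1.00).

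Ccl25, the ligand that homes T cells to the small intestine, was even across the libraries, at 20.9, 19.1 and 18.7 CPM in the libraries labelled shIRS2 and 19.9, 20.2 and 21.2 CPM in the shControl libraries. Ccl25 overlaps Elavl1, which is encoded on the opposite strand and had 13052 counts against 2033 for Ccl25. The libraries were made strand-specific per the labels, but the strand setting of the counting is not given, so reads of Elavl1 within the Ccl25 value cannot be told apart. Lif had 11.4, 7.12 and 9.84 CPM in the libraries labelled shIRS2 and 12.1, 6.72 and 9.15 CPM in the shControl libraries. Cx3cl1, fractalkine, which is made as a membrane protein and released by cleavage, had 18.1, 26.4 and 25.2 CPM in the libraries labelled shIRS2 and 17.9, 20.8 and 23.6 CPM in the shControl libraries. Both genes overlapped between the groups, with log2 fold changes of 0.04 for Lif and 0.17 for Cx3cl1, and that of Ccl25 was -0.05 (edgeR adjusted p 1.00 for each).

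Among the neutrophil attractants, Cxcl1 had 80.1, 55.5 and 61.5 CPM in the libraries labelled shIRS2 and 62.6, 49.0 and 58.5 CPM in the shControl libraries. Within each number the library labelled shIRS2 was the higher, by log2 ratios of 0.38, 0.19 and 0.07, yet the groups overlapped. With the block its estimate was 0.22 on the log2 scale (95% interval 0.06 to 0.37, edgeR adjusted p 0.393). Cxcl5 had 3.12, 3.41 and 2.30 CPM in the libraries labelled shIRS2 and 1.47, 2.32 and 1.75 CPM in the shControl libraries. Here the groups overlapped only by the lowest shIRS2 and the highest shControl value, and the estimate was 0.67 on the log2 scale (SE 0.27, 95% interval 0.06 to 1.28, edgeR adjusted p 1.00). Cxcl2 had 3.47, 2.50 and 3.32 CPM in the libraries labelled shIRS2 and 3.67, 2.27 and 3.50 CPM in the shControl libraries, with a log2 fold change that rounded to -0.00 (95% interval -0.57 to 0.56).

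Cxcl10 was the only one of the 13 tested members whose groups did not overlap, a state that 6.52% of tested genes shared in CPM and 6.35% after scaling by TMM. Cxcl10, an interferon-induced attractant of T cells, had 0.824, 0.974 and 0.894 CPM in the libraries labelled shIRS2 and 1.53, 1.67 and 1.81 CPM in the shControl libraries. These levels rest on 14, 16 and 14 counts in the libraries labelled shIRS2 and on 23, 33 and 32 counts in the shControl libraries. Its estimate was -0.88 on the log2 scale (SE 0.28, 95% interval -1.50 to -0.26), and leaving out single libraries moved it between -0.95 and -0.82. Its unadjusted p of 0.00987 ranked 26 of 13472 genes, and its edgeR adjusted p was 1.00, or 0.397 with the block. Among members under the filter, Ccl17 also did not overlap in CPM, on 0, 1 and 0 counts in the libraries labelled shIRS2 and 1, 3 and 2 counts in the shControl libraries. Csf2, which supports granulocytes and macrophages, had 1.00, 0.974 and 1.21 CPM in the libraries labelled shIRS2 and 1.40, 0.910 and 1.47 CPM in the shControl libraries, which overlapped (log2 fold change -0.22, edgeR adjusted p 1.00). Cxcl3, with 12 to 15 counts in the libraries labelled shIRS2 and 12 to 17 in the shControl libraries, was at -0.07 (edgeR adjusted p 1.00).

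**Figure D2:**
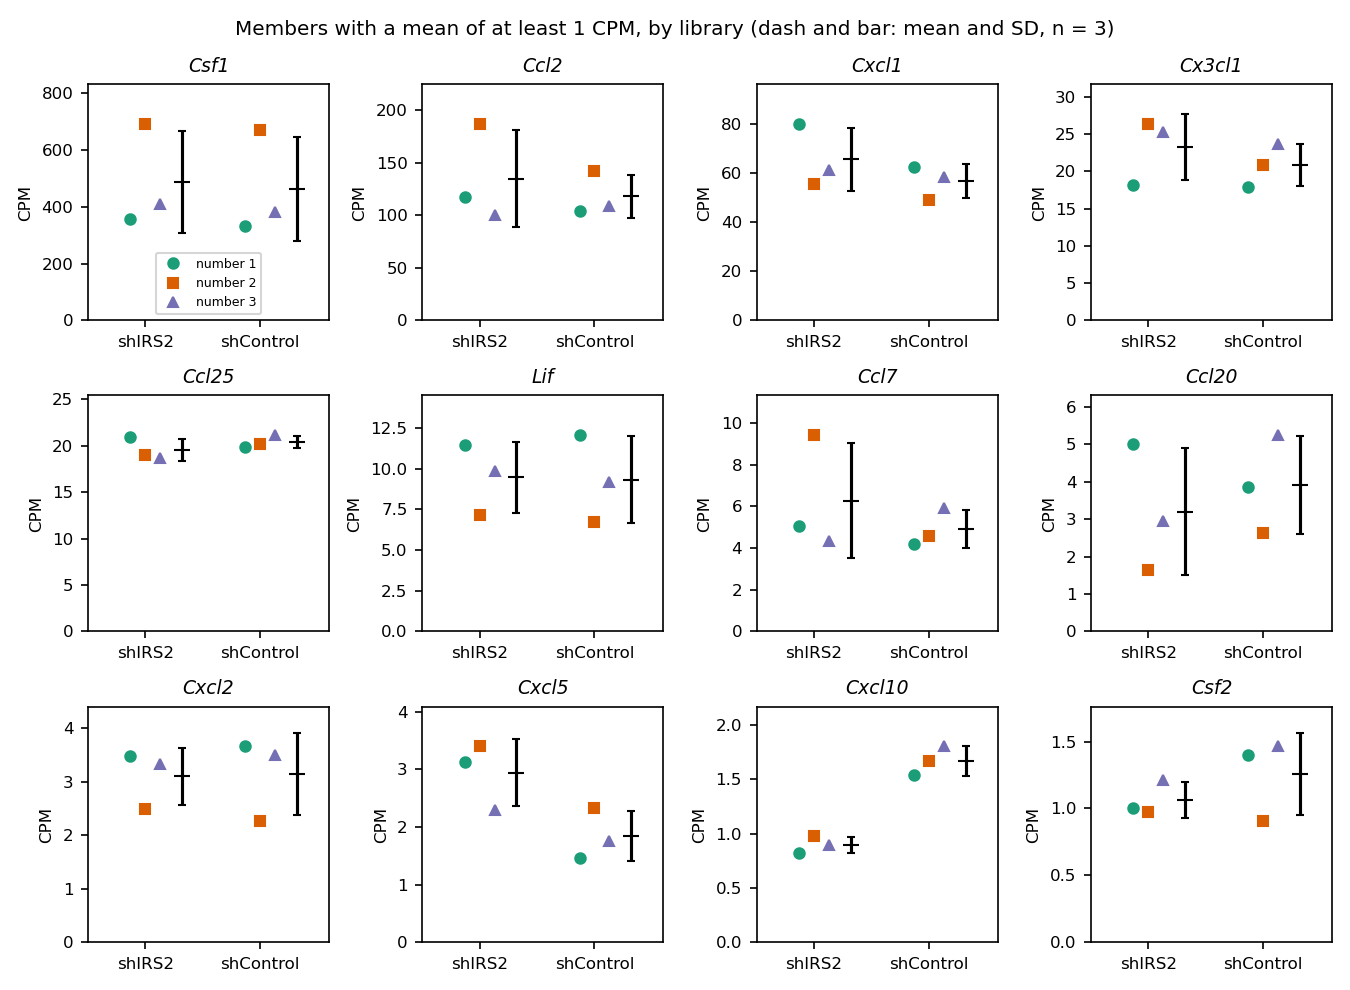
CPM in each library for the 12 members with a mean of at least 1 CPM, shIRS2 left and shControl right, with symbols for the replicate number and a dash and bar for the mean and SD of each group (n = 3). Cxcl10 is the only panel in which all 3 shIRS2 libraries, at 0.824 to 0.974 CPM, lie below all 3 shControl libraries, while in the Csf1 panel the libraries numbered 2 stand above the rest of both groups.

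**Figure D3:**
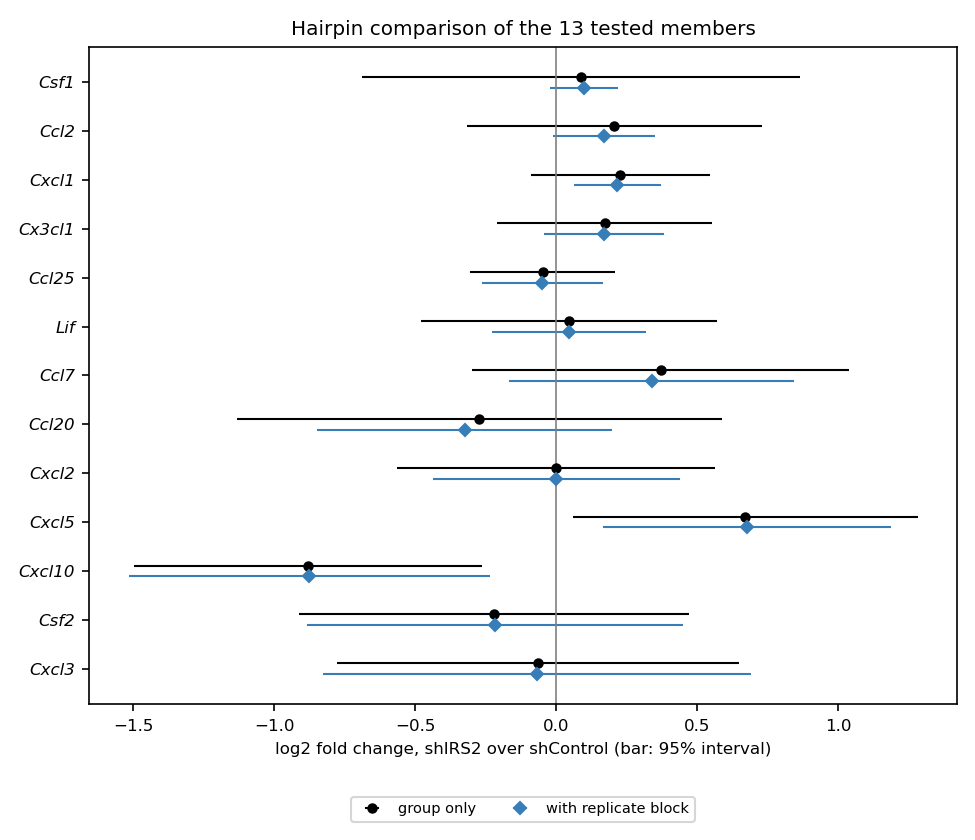
Log2 fold change, shIRS2 over shControl, of the 13 tested members from the edgeR fit with the group alone (black) and with the replicate block (blue), with bars for the 95% interval. The black interval leaves 0 outside for Cxcl5, at 0.67, and Cxcl10, at -0.88, and the blue interval of Csf1 is narrower than the black one.

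Several members differed by the replicate number of the library. In an edgeR quasi-likelihood F test of the number as a whole, with the group as a term, 6 of 13 members passed an adjusted p of 0.05, against 19.6% of all tested genes. These were Csf1, Ccl2, Cxcl1, Lif, Cx3cl1 and Ccl20, with adjusted p-values of 1.9e-06, 0.00066, 0.0119, 0.0132, 0.0309 and 0.0483. Csf1 ranked 5 of 13472 genes by this test. The calls of Csf1 and Ccl2 held in each of the 10 alternatives tried. The others were lost without the shIRS2 library numbered 2, those of Cxcl1, Lif and Ccl20 also without the shControl library numbered 2, and those of Cxcl1 and Cx3cl1 also without the shIRS2 library numbered 1. Over the alternatives their adjusted p-values reached 0.143 for Cxcl1, 0.196 for Cx3cl1, 0.176 for Lif and 0.337 for Ccl20. Each number stands for 1 library of each group, and the labels do not say what the libraries of one number have in common. In bulk RNA, fewer cells that make a transcript and less of it per cell cannot be told apart.

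The libraries numbered 2 carried most of these differences. Against the mean of the other numbers, 5 of 13 members passed the threshold, where 23.5% of all genes did: 2 were higher, against 11.6% of genes, and 3 were lower, against 11.9%. A contrast of at least 0.5 in log2 size was found for 6 members, against 12.8% of genes. The median contrast of the 13 members was -0.01 and that of all genes -0.00, and the called members lay on both sides.

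Csf1 was higher in the libraries numbered 2, at 692 CPM in shIRS2 and 670.4 CPM in shControl, than in the other 4 libraries, which lay between 331 and 411 CPM. The log2 contrast was 0.92 (SE 0.06, edgeR adjusted p 5.1e-07), a fold of 1.89 with a 95% interval of 1.73 to 2.06. The ratio of number 2 to the mean of numbers 1 and 3 was 1.80 within shIRS2 and 1.88 within shControl. Number 2 was thus the highest in both hairpin groups, and the difference between their ratios was not tested. The 3 contrasts of a gene sum to 0, so a high number 2 makes the others lower. The log2 contrast of Csf1 for number 1 against the others was -0.62 (SE 0.06, edgeR adjusted p 0.000194), and that for number 3 was -0.30 (SE 0.06, edgeR adjusted p 0.00911). Number 3, at 411 CPM in shIRS2 and 381 CPM in shControl, lay between the other numbers, and its call was lost without the shControl library numbered 2 or 3, at edgeR adjusted p-values of 0.0870 and 0.0621.

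Ccl2 was higher in the libraries numbered 2, at 187 CPM in shIRS2 and 142 CPM in shControl, against 100.03 to 117 CPM in the other 4. Its log2 contrast was 0.63 (SE 0.09, edgeR adjusted p 0.000181), a fold of 1.55 with a 95% interval of 1.36 to 1.77. The ratio to the mean of numbers 1 and 3 was 1.72 within shIRS2 and 1.33 within shControl, and this difference between the groups was not tested. Csf1 and Ccl2 were the 2 tested members whose libraries numbered 2 lay above all others, against 16.7% of tested genes. Their calls for number 2 also held in each of the 10 alternatives tried.

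Ccl7, next to Ccl2 on the chromosome, did not pass, with a log2 contrast of 0.50 (SE 0.24, edgeR adjusted p 0.151). Number 2 was 2.01 times the mean of numbers 1 and 3 within shIRS2 and 0.908 times within shControl. Single libraries decided its value: the contrast was -0.11 without the shIRS2 library numbered 2, 1.03 without the shControl library numbered 2 (edgeR adjusted p 0.00733) and 0.80 without the shControl library numbered 3 (edgeR adjusted p 0.000702).

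Cxcl1, Lif and Ccl20 were lower in the libraries numbered 2. For Ccl20 they held 1.64 CPM in shIRS2 and 2.63 CPM in shControl, against 2.94 to 5.25 CPM in the other 4, a log2 contrast of -0.97 (SE 0.27, edgeR adjusted p 0.0181). For Lif they held 7.12 CPM in shIRS2 and 6.72 CPM in shControl, against 9.15 to 12.1 CPM, a log2 contrast of -0.58 (SE 0.14, edgeR adjusted p 0.00807). For Cxcl1 they held 55.5 CPM in shIRS2 and 49.0 CPM in shControl, against 58.5 to 80.1 CPM, a log2 contrast of -0.29 (SE 0.08, edgeR adjusted p 0.0130). Relative to the mean of numbers 1 and 3, number 2 was at 0.414 in shIRS2 and 0.576 in shControl for Ccl20, at 0.670 in shIRS2 and 0.633 in shControl for Lif, and at 0.784 in shIRS2 and 0.809 in shControl for Cxcl1. Without the shIRS2 library numbered 2 the edgeR adjusted p was 0.168 for Ccl20, 0.0924 for Lif and 0.234 for Cxcl1. Without the shControl library numbered 2 it was 0.182 for Lif and 0.170 for Cxcl1, and Ccl20 in DESeq2 had an adjusted p of 0.0582.

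Cxcl2, Csf2 and Cxcl3 were also lowest in the libraries numbered 2 without passing the test, at log2 contrasts of -0.52, -0.40 and -0.17 and edgeR adjusted p-values of 0.102, 0.424 and 0.784. This makes 6 tested members with both libraries numbered 2 below all others in CPM not scaled by TMM, against 23.4% of tested genes. Cxcl3 is among them by a narrow margin, at 0.758 CPM in the shControl library numbered 2 against 0.767 CPM in the shIRS2 library numbered 3. Cxcl5, of the same cluster as Cxcl1, Cxcl2 and Cxcl3, had a contrast of 0.45 (SE 0.24, edgeR adjusted p 0.208). Its promoter was not in the table used here.

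Fewer members passed for number 1 and number 3. For number 1, 2 of 13 members passed, against 2.61% of genes: Csf1, given above, and Cxcl1, which was higher, at 80.1 CPM in shIRS2 and 62.6 CPM in shControl against 49.0 to 61.5 CPM in the other 4, with a log2 contrast of 0.32 (SE 0.08, edgeR adjusted p 0.0353). The Cxcl1 call was lost in 5 of the alternatives, among them without the shIRS2 libraries numbered 1 or 2 or the shControl library numbered 2 (edgeR adjusted p 0.275, 0.174 and 0.0752). Cx3cl1 was lowest in the libraries numbered 1, at 18.1 CPM in shIRS2 and 17.9 CPM in shControl, with a log2 contrast of -0.43 (SE 0.11, edgeR adjusted p 0.0505). For number 3, 2 of 13 members passed, against 8.40% of genes: Csf1, given above, and Ccl2 at -0.37 (SE 0.09, edgeR adjusted p 0.0252). Ccl2 averaged 111 CPM for number 1, 164 CPM for number 2 and 104 CPM for number 3, so that this contrast mostly mirrors the high number 2. The Ccl2 contrast for number 3 was -0.16 without the shIRS2 library numbered 3 (edgeR adjusted p 0.374), and the call was also lost without the shIRS2 libraries numbered 1 or 2 or the shControl library numbered 1 (edgeR adjusted p 0.0831, 0.0968 and 0.0625).

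**Figure D4:**
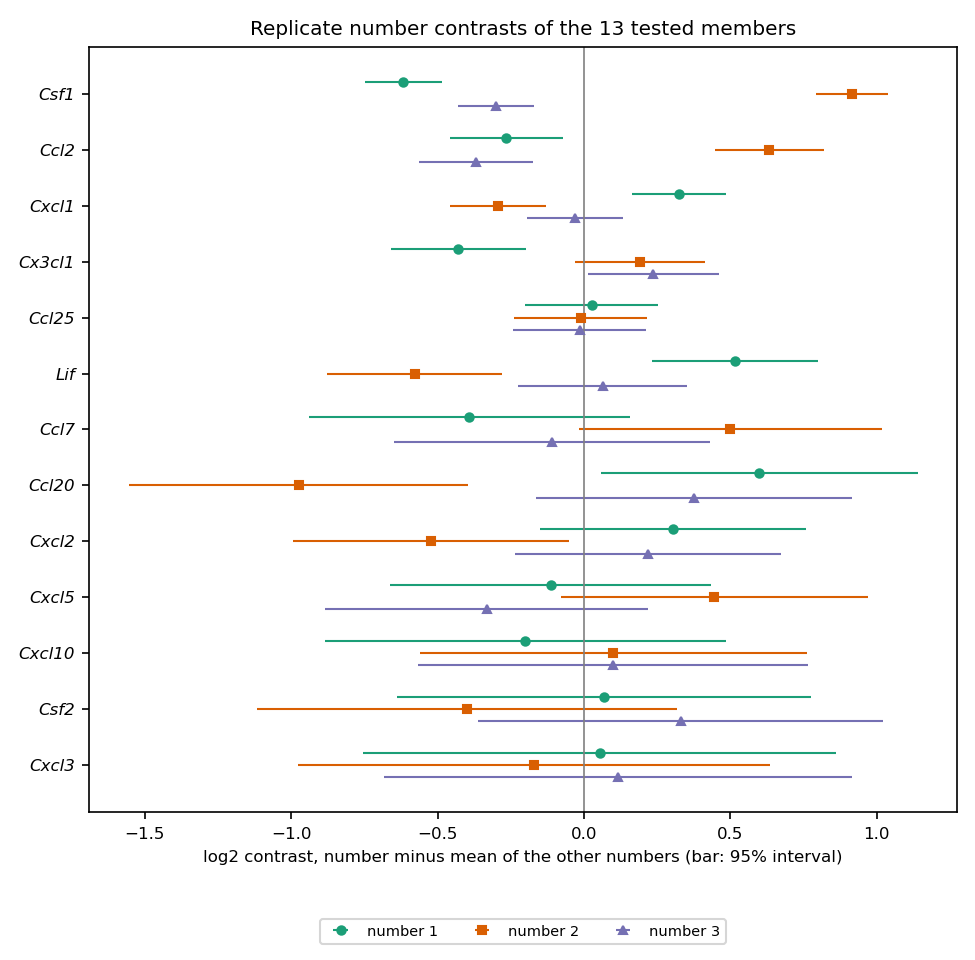
Log2 contrasts of the replicate numbers 1, 2 and 3, each against the mean of the other numbers, for the 13 tested members in edgeR with the group as a term, with bars for the 95% interval. Number 2 lies far right for Csf1, at 0.92, and Ccl2, at 0.63, and left for Ccl20, at -0.97, and Lif, at -0.58.

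The receptors of these ligands were mostly near or at 0 in the same libraries. The pairs below were set by the ligand and not by level. Csf1 at 89.7 FPKM stood against 0.0366 FPKM for its receptor Csf1r, from 18 counts. Ccr2, the receptor of Ccl2 and Ccl7, and Cxcr2, the receptor of Cxcl1, Cxcl2 and Cxcl5, were listed at 0 in all 6 libraries, as was Csf2ra, a chain of the Csf2 receptor. Lifr was at 0.0195 FPKM, Cx3cr1 at 0.0176, Ccr9 at 0.00471 and Ccr6 at 0.00420, each from 21 or fewer counts. The opposite order was seen for 3 pairs: Il6ra averaged 6.36 FPKM against 0.0708 for Il6, Il11ra1 1.67 against 0.170 for Il11, and Il1rl1 1.59 against 0.0758 for Il33. Cxcr3 and its ligand Cxcl10 were both low, at 0.510 and 0.567 FPKM.

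**Figure D5:**
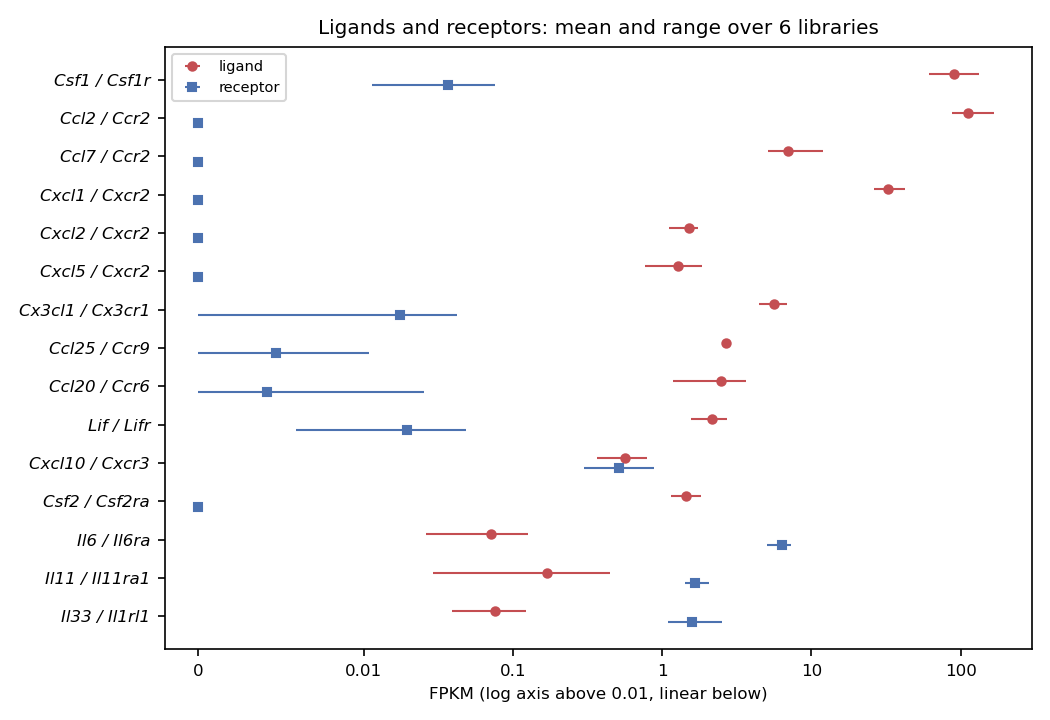
Mean FPKM of 15 ligands (red) and the paired receptor (blue), with lines for the range over 6 libraries, on an axis that is logarithmic above 0.01 and linear below. Ligands lie right of their receptors for Csf1 through Lif and for Csf2, the Cxcl10 pair overlaps, and receptors lie right for Il6, Il11 and Il33.

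None of the pathway lists held a gene called between the hairpin groups, with or without the block. Of 23 chemokine receptors 9 were at 0 and 5 were tested. Of these, 1 was lower in the libraries numbered 2, against 11.9% of all tested genes. This was Ackr3, the scavenging receptor of Cxcl12, which led at 12.2 FPKM (log2 contrast -0.38, edgeR adjusted p 0.00383). Of 12 cytokine receptor genes 6 were tested, and 4 of them were higher in the libraries numbered 2, against 11.6% of all tested genes: Il1rl1 by 0.68, Il1rap by 0.49, Il6ra by 0.29 and Il6st, at 17.8 FPKM the highest, by 0.25 on the log2 scale (edgeR adjusted p 0.00216, 0.00184, 0.00883 and 0.0180). Of 15 related cytokines 8 were tested. In the libraries numbered 2, 1 was higher and 1 lower, against 11.6% and 11.9% of all tested genes. Kitl, the ligand of Kit, was higher at a log2 contrast of 0.23, and Osm, a gp130 cytokine, lower at -1.48 (edgeR adjusted p 0.0328 and 0.0327). In the test of the number as a whole 1 of the 8 passed, against 19.6% of all tested genes. Tnf and Il1b, inducers of many members, had 1 count each over all libraries.

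Of 19 genes of the NF-kB pathway 18 were tested, and 4 differed for number 2, a share near the 23.5% of all tested genes. On the log2 scale, Vcam1, an adhesion molecule, was higher by 0.88, and the NF-kB subunits Relb and Rel by 0.62 and 0.39, while Nfkbia, the inhibitor that NF-kB itself induces, was lower at -0.33 (edgeR adjusted p 0.000136, 0.00229, 0.0175 and 0.00391). Of 16 genes of JAK, STAT and SOCS signalling 14 were tested, and 5 were lower in the libraries numbered 2 and 0 higher, against 11.9% and 11.6% of all tested genes. The log2 contrast of the kinase Tyk2 was -0.49, that of Stat5a -0.56, of Stat2 -0.47, of Pias3 -0.32, and of the phosphatase Ptpn6, named after its value was seen, -0.77 (edgeR adjusted p 0.000741, 0.00918, 0.00793, 0.00465 and 0.0156). Socs3, the feedback inhibitor of gp130 signalling, was at 14.7 FPKM with a contrast of -0.19 (edgeR adjusted p 0.254).

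Of 10 genes for release or retention of chemokines 9 were tested. The heparan sulphate carriers Sdc4 and Sdc1 had 105 and 100.5 FPKM, and the proteases Adam10 and Adam17, which release Cx3cl1 and other membrane ligands, had 43.5 and 25.5 FPKM. For number 2, 1 of the 9 was higher and 1 lower, against 11.6% and 11.9% of all tested genes. These were Ext1 at a log2 contrast of 0.21 and Ext2 at -0.20, both enzymes that build heparan sulphate chains (edgeR adjusted p 0.0332 and 0.0326). All 9 had a hairpin estimate above 0, at a median of 0.09 on the log2 scale, against 49.9% of all tested genes and their median of -0.00, and none was called. Dpp4, a protease that trims chemokines, had 1 count.

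Markers of cells that could also make these ligands were counted alongside. Of 12 macrophage and other myeloid markers, Itgam, Adgre1, C1qa and C1qc were at 0 and Ptprc had 3 counts, while Cd14, Lyz2 and Cd68 passed the filter, with 1319, 240 and 221 counts. Their sum over the list lay between 14.2 and 19.7 CPM in the libraries labelled shIRS2 and between 14.3 and 22.6 CPM in the shControl libraries, and none was called for number 2. The sum was highest in the libraries numbered 1, at 19.7 CPM in shIRS2 and 22.6 CPM in shControl, and lowest in those numbered 3, at 14.2 CPM in shIRS2 and 14.3 CPM in shControl. Of the 3 tested markers, 1 was called for number 3, against 8.40% of all tested genes. This was Cd14, lower at a log2 contrast of -0.53 (edgeR adjusted p 0.0192). Of 7 lymphocyte markers 5 were at 0, and the list summed to 0.511 to 0.730 CPM in the libraries labelled shIRS2 and 0.400 to 0.734 CPM in the shControl libraries. Of 6 endothelial markers Pecam1 passed the filter with 100 counts and a hairpin log2 fold change of -1.03 (edgeR adjusted p 1.00), and the list summed to 0.730 to 1.18 CPM in the libraries labelled shIRS2 and 1.13 to 2.12 CPM in the shControl libraries.

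Fibroblast markers were mixed. Of the 10, 5 had a mean of at least 1 CPM, and not all of these are named here. Col3a1 was at 74.6, Pdgfrb at 7.81 and Pdgfra at 5.72 FPKM, Col1a1 and Dcn had 20 and 25 counts, and Thy1 and Postn were at 0. The 10 fibroblast markers summed to 849.7 to 989 CPM in the libraries labelled shIRS2 and 629 to 967 CPM in the shControl libraries. For number 2, 1 of the 5 tested fibroblast markers was lower and 1 higher, against 11.9% and 11.6% of all tested genes. Pdgfra was lower at a log2 contrast of -0.67 and Pdgfrb higher at 0.33 (edgeR adjusted p 4.3e-05 and 0.0143). Pdgfra was higher for number 1 at 0.36 and for number 3 at 0.32 (edgeR adjusted p 0.0205 and 0.0183). The part of other cell types in the differences of Csf1, Ccl2 and the other members was not tested.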

How the data were processed

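RNA was measured in 6 libraries of cells labelled Glu-tag, 3 per hairpin group. RNA was extracted with TRIzol and libraries were strand-specific, per the labels' protocols. The submitters' processing notes name the build mm10. Aligner, counting tool and strand setting: not given in the sources used here. The authors deposited whole-number read counts per gene and FPKM values. The FPKM values equal the counts over the listed gene length and a library total, which was 0.985 to 1.02 times the count sum. The table columns that begin NC were read as shControl and those that begin S as shIRS2, from the names alone, and 0 columns of per-sample values were left unused.

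The count models were fitted by edgeR 4.0.16 in R 4.3.3 (filterByExpr by group, TMM, robust quasi-likelihood test). Benjamini-Hochberg adjustment ran over all 13472 tested genes, with a threshold of 0.05. All tests were two-sided. The hairpin fit had the group as its only term, and the replicate number was tested with the group as a term. Alternatives used DESeq2 1.42.0, limma 3.58.1 (voom, and log2 of FPKM plus a pseudocount of 1), other scaling, no filter, a replicate block and left-out libraries. Leaving out both libraries of a number and DESeq2 with the block were chosen after the data were seen. The scripts' tests were tested on simulated data.

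Deviations from the group means correlated at 0.167, 0.576 and 0.260 over 13472 genes for the libraries numbered 1, 2 and 3. Within a group the deviations of a gene sum to 0, so a shared difference of number 2 alone also makes the other values positive. The values thus cannot show that every number pairs its libraries, and no label says what a number marks. The series calls the libraries biological replicates, and nothing else says that they came from separate cultures, so a p-value here reflects the spread among 6 libraries, which may be technical. The members and gene lists were chosen with earlier results of these data known. Every member past the filter is named, those with a mean of at least 1 CPM in every library, and from each list up to 4 genes by the smallest p in each test and 2 by level.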

Additional observations from a re-analysis of the deposited data

How the results depend on the processing

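The hairpin comparison called 0 members in every alternative tried, the replicate block included, which changed no member's call. Its count of genes called was 0 in the fit without the block, 1 with the replicate block, 6 without a filter on low counts, 2 with DESeq2, 4 with DESeq2 and the replicate block, and 0 to 1 with libraries left out. The replicate number test called 2638 genes, 1634 with DESeq2, and 798 to 3774 with single libraries left out, lowest without the shControl library numbered 2 and 973 without the shIRS2 library numbered 2. It called 6 members, 3 without the group term (Csf1, Ccl2 and Lif), 3 with DESeq2 (Csf1, Ccl2 and Cxcl1), 5 with RLE size factors in place of TMM, where Ccl20 was lost, and 2 to 7 with single libraries left out, the 2 being Csf1 and Ccl2 without the shIRS2 library numbered 2. Some uncalled contrasts changed sign. With libraries left out, hairpin log2 fold changes ranged from -0.27 to 0.47 for Csf1, -0.12 to 0.39 for Ccl2, -0.12 to 0.014 for Ccl25, -0.14 to 0.26 for Lif, -0.10 to 0.74 for Ccl7, -0.77 to 0.064 for Ccl20, -0.19 to 0.12 for Cxcl2 and -0.19 to 0.071 for Cxcl3. For Cxcl2 the value was 0.0032 without a filter, 0.026 with limma-voom and 0.0034 with DESeq2 and the replicate block. The contrast of number 2 ranged from -0.064 to 0.045 for Ccl25 and -0.11 to 1.03 for Ccl7. The cause was not tested. Members under about 1 CPM rest on few counts, and 0 counts over the 6 libraries leave room for levels up to 0.0295 CPM by counting error alone. For genes with several copies that limit may not hold.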
